A study of Mus musculus with 8 samples.

Results

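The genes described here are 10 genes for matricellular and related matrix glycoproteins, namely Postn, Fn1, Tnc, Tnxb, Sparc, Sparcl1, Thbs1, Thbs2, Thbs3 and Smoc2. They were chosen by symbol, with earlier results of these data known, among the 22880 Ensembl gene identifiers counted in mouse soleus. The soleus is a calf muscle rich in slow fibres that works in posture. Each symbol matched a single identifier, and all 10 passed the filter on low counts, as did 14001 genes in all. RNA was sequenced from 4 control mice (Dnm2 +/+) and 4 Dnm2 +/K562E mice, which carried a lysine-to-glutamate point mutation in 1 allele of the dynamin 2 gene. All were males aged 2 months, of the C57BL/6 background by the labels and C57BL/6J by the study's methods. The mutation was present in every cell type of the animal, at the endogenous locus and with a LoxP site left in an intron, so a difference in whole muscle does not locate it to muscle fibres, matrix-producing cells or immune cells.

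Matricellular proteins are secreted into the extracellular matrix, where they modulate how cells attach to, sense and remodel it rather than bear load themselves. Many are abundant in development, fall in adult tissue and return during wound healing, fibrosis and muscle regeneration. Fibronectin, a structural glycoprotein, is included because periostin, tenascin-C and the thrombospondins act together with it in the matrix. In skeletal muscle their main known sources are fibroblasts and fibro-adipogenic progenitors (the resident mesenchymal cells), tendon cells, vessel cells and macrophages.

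Depth lay between 33407430 and 48832814 counts per mouse. TMM scaling factors lay between 0.915 and 0.959 for controls, and Dnm2 +/K562E mice had factors of 1.037 to 1.103. Levels below are normalized CPM, that is, read counts relative to the scaled library size (CPM), and differences are log2 fold changes from edgeR's quasi-likelihood test with Benjamini-Hochberg adjustment over all 14001 genes. A gene was called higher or lower when the adjusted p was under 0.05 and the size of the log2 fold change reached 0.58. The level of Dnm2 itself, 66.3 ± 4.74 normalized CPM (SD, n = 4) for controls against 73.4 ± 2.43 for Dnm2 +/K562E mice (edgeR, adjusted p = 0.0909), is the sum over both alleles and so does not check the genotype labels. Markers of slow muscle fibres were abundant in every mouse, with a summed level of 19556 to 23042 normalized CPM in controls and 11340.5 to 14342 in Dnm2 +/K562E mice.

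All 10 genes had a higher mean in Dnm2 +/K562E soleus, and 9 of them were called higher, with none called lower. Over all tested genes 12.9% were called higher and 7.85% lower, 20.7% in all. The members were chosen with earlier results of these data known, so the shares given here describe them and test nothing. The median log2 fold change was 1.22 over the 10 genes and 0.01 over all tested genes. Tnc and Postn rose most, by 5.63-fold and 4.44-fold. The 3 thrombospondins and Fn1 rose between 2.31-fold and 2.91-fold, and Sparc, Sparcl1 and Tnxb rose 1.55-fold each. Smoc2 had an adjusted p under 0.05 but a fold change of 1.3, below the threshold. By adjusted p alone all 10 genes were higher, against 22.2% of all tested genes, with a further 21.7% lower. In 8 of the 10 genes every Dnm2 +/K562E mouse lay above every control, which held for 20.6% of all tested genes, and no member lay below all controls, which held for 20.5%. In whole muscle, more cells of a type and more RNA per cell cannot be told apart. Summed over the 10 genes, controls had 2912 ± 272 normalized CPM (SD, n = 4) and Dnm2 +/K562E mice 5715 ± 653.

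**Figure D1:**
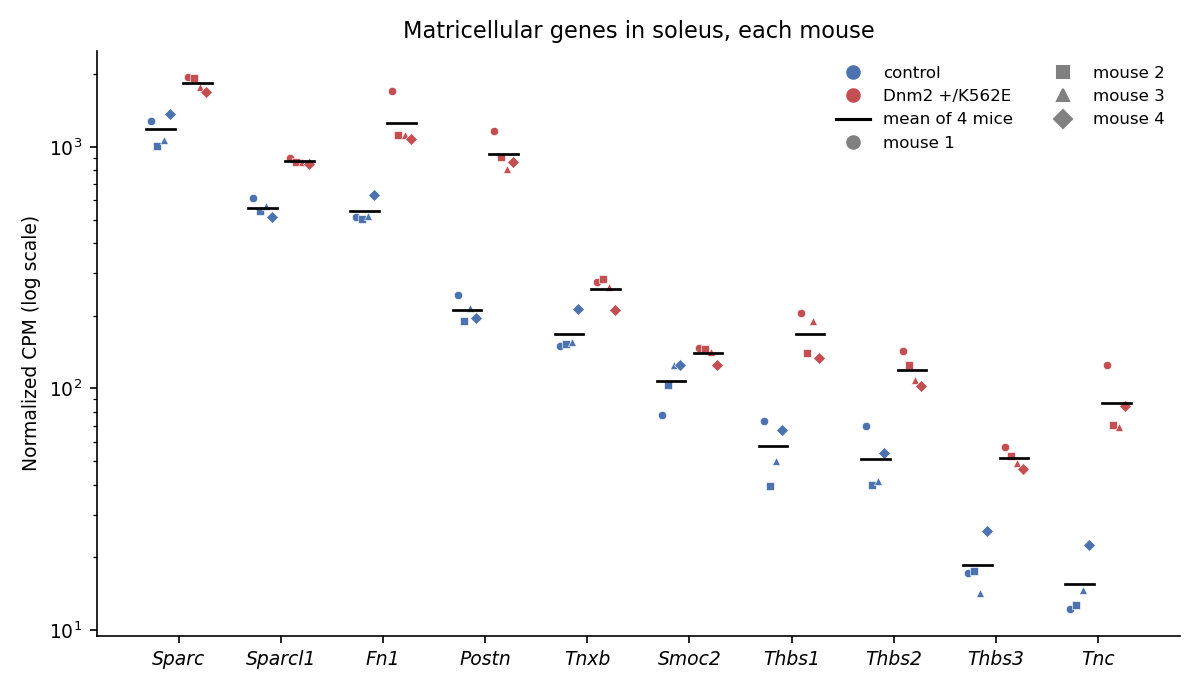
Normalized CPM (vertical log axis) of the 10 genes in each of the 8 mice, ordered by the control mean. Colours give the genotype, symbols the mouse number of the sample titles and bars the mean of 4 mice. The genotypes overlap only for Tnxb and Smoc2, and Dnm2 +/K562E mouse 1 is the highest mutant mouse for 9 of the 10 genes.

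Periostin (Postn, ENSMUSG00000027750, chromosome 3, 54361109 to 54391037 of GRCm38, plus strand) binds fibronectin, tenascin-C and collagen and helps the collagen-cross-linking enzyme lysyl oxidase to act. Its level was 243, 191, 215 and 195 normalized CPM in controls 1 to 4 and 1162, 911, 807 and 869.5 in Dnm2 +/K562E mice 1 to 4. The lowest Dnm2 +/K562E mouse thus stood far above the highest control. Postn rose by 2.15 ± 0.12 on the log2 scale (SE, adjusted p = 7.63e-07 with edgeR). By size this was the increase of rank 140 among all tested genes, and by p-value it had rank 41. None of the 31-base stretches in Postn transcripts occurs in transcripts of another gene.

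Tenascin-C (Tnc, ENSMUSG00000028364, chromosome 4, 63959785 to 64047015, minus strand) is a large hexameric glycoprotein that loosens cell adhesion to fibronectin and is found in adult muscle mainly near tendon and after injury. Controls 1 to 4 had 12.2, 12.7, 14.6 and 22.5 normalized CPM, and Dnm2 +/K562E mice 1 to 4 had 125, 70.4, 69.2 and 84.2. Control 4 was the highest control, but it remained below all mutant mice. Its rise of 2.49 ± 0.23 on the log2 scale (SE, adjusted p = 1.42e-05 with edgeR) was the largest of the 10 genes and ranked 93 among all tested genes. Its count in single mice ran from 408 to 4594 reads. Tnc also varied most, with a coefficient of variation of 30.8% in controls and 29.8% in mutants. Without Dnm2 +/K562E mouse 1 the log2 fold change was 2.27.

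Promoter windows from RefSeq (GRCm38.p6), from 250 bases before to 50 bases after an annotated start, were found for 6 of the 10 genes. Those of the 4 among them with the largest increases are printed from 5′ to 3′ on the gene's strand. They show the letters at the starts of these genes. Capitals mark, on either strand and at any place, TATAAA (the letters of the TATA box), TGANTCA (the AP-1 site), CAGACA (a sequence holding the Smad-binding core) and GGAATG (the TEAD site).
Postn, chr3:54360857-54361156, plus strand: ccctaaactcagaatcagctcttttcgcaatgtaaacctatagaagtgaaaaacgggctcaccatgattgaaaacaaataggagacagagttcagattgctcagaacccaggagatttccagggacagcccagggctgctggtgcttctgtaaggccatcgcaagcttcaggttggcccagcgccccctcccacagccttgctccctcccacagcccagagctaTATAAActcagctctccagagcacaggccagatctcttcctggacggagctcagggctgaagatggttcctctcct
Tnc, chr4:64046966-64047265, minus strand: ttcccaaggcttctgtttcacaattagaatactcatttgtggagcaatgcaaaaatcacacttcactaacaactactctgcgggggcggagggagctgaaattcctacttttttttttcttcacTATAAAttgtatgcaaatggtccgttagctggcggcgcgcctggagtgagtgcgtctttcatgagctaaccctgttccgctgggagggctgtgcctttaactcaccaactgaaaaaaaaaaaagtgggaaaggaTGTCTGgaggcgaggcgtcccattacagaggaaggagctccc
Thbs2, chr17:14694213-14694512, minus strand: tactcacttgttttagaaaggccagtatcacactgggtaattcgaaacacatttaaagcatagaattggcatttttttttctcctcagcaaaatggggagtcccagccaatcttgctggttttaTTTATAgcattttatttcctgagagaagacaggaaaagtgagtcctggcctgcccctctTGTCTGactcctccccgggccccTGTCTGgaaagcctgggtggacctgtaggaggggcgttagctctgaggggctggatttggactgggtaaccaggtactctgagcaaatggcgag
Thbs3, chr3:89214930-89215229, plus strand: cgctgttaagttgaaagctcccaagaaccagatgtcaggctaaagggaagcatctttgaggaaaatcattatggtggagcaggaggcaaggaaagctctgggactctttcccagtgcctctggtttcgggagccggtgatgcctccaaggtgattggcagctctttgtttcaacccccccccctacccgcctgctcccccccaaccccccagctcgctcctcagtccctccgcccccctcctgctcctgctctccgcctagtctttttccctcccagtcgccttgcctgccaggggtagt
In the Postn window a TATAAA begins 26 bases before the annotated start. The Tnc window holds TATAAA 126 bases before the start and a CAGACA on the other strand 8 bases after it. In Thbs2, CAGACA occurs on the other strand 67 and 44 bases before the start. TATAAA, also on the other strand, lies 126 bases before it, whereas the Thbs3 window has none of the marked sequences. Tnxb and Sparc are the other members with a window. The 6 genes have 8 windows, of which the 2 of Tnc overlap. CAGACA occurred in 4 of the 8 windows (both of Tnc, Sparc and Thbs2), TATAAA in 4 (1 of Postn, both of Tnc and Thbs2), TGANTCA in 1 (Tnxb) and GGAATG in 0. By genes, CAGACA and TATAAA each occurred in 3 of 6. The Sparc window lies around a start 3103 bases from the start of the whole gene. For the Postn window not printed this distance is 1842 bases. Of all 32841 promoter windows in the table, 21% hold CAGACA, 13.6% TATAAA, 7.81% TGANTCA and 14.7% GGAATG. Also searched were GGGCGG (the GC box, 3 of 8 windows, 35.7% of all) and the CArG box (0 of 8, 1.63% of all). These matches describe the letters in the windows and are no evidence of binding.

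Tenascin-X (Tnxb, ENSMUSG00000033327, chromosome 17, 34670535 to 34719815, plus strand), the family member that spaces collagen fibrils in adult connective tissue, changed far less than Tnc. Its level was 150, 152, 155 and 213 normalized CPM in controls 1 to 4 and 277, 283, 263 and 212 in Dnm2 +/K562E mice 1 to 4. Control 4 and mutant mouse 4 met at nearly the same value, so the genotypes overlapped. Tnxb rose by 0.63 ± 0.12 on the log2 scale (SE, adjusted p = 0.00209 with edgeR), just past the threshold on fold change. It was 0.57 without control 1, which ended the call, and 0.76 without control 4. Tnxb shared 9.76% of its 31-base stretches with other genes, chiefly its partial copy Tnxa.

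The log2 ratio of Tnc to Tnxb counts within a library does not depend on the scaling between libraries. It was -3.63, -3.58, -3.41 and -3.24 in controls 1 to 4 and -1.15, -2.01, -1.93 and -1.33 in Dnm2 +/K562E mice 1 to 4, with no overlap. The difference of 1.86 reached the smallest p that 4 against 4 mice allow (exact two-sided permutation test, p = 0.0286). Adjusted over the 7 ratios of related genes compared here, p was 0.1, so it did not pass the adjustment. With this smallest p a ratio passes only if most of the 7 ratios reach it. The adjusted p therefore cannot decide whether this ratio changed.

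Fibronectin (Fn1, ENSMUSG00000026193, chromosome 1, 71585520 to 71653200, minus strand) forms the fibrils on which collagen and several matricellular proteins assemble. Controls 1 to 4 had 512, 504, 519 and 634 normalized CPM, and Dnm2 +/K562E mice 1 to 4 had 1697, 1121, 1116 and 1081. In each genotype a single mouse stood above 3 close values, namely control 4 and mutant mouse 1, and the genotypes did not overlap. Fn1 rose by 1.21 ± 0.14 on the log2 scale (SE, adjusted p = 7.55e-05 with edgeR), and by 1.03 without mutant mouse 1. Between genotypes the log2 ratio of Postn to Fn1 moved from -1.36 ± 0.26 (SD, n = 4) in controls to -0.41 ± 0.12 in Dnm2 +/K562E mice. All 4 mutant ratios (-0.55 to -0.30) were above those of the controls (-1.70 to -1.08) (exact two-sided permutation test, p = 0.0286, adjusted over 7 ratios 0.1). Postn thus increased 1.93-fold relative to Fn1 in these mice, a difference that did not pass the adjustment. The adjusted p has the limit given above for the ratio of Tnc to Tnxb.

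The thrombospondins are multimeric calcium-binding glycoproteins. Thbs1 and Thbs2 form trimers that inhibit blood vessel growth, and thrombospondin-1 is also a main protein of platelet granules and can activate latent TGF-beta. Thbs3 belongs to the pentameric group. Thbs1 (ENSMUSG00000040152, chromosome 2, 118111876 to 118127133, plus strand) was at 73.3, 39.4, 50.2 and 67.4 normalized CPM in controls 1 to 4 and at 206, 139.6, 189.6 and 134 in Dnm2 +/K562E mice 1 to 4. It varied widely within each genotype, and still the lowest mutant mouse was well above the highest control. Thbs1 rose by 1.54 ± 0.20 on the log2 scale (SE, adjusted p = 0.000127 with edgeR).

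Thbs2 (ENSMUSG00000023885, chromosome 17, 14665500 to 14694235, minus strand) had 69.7, 39.7, 41.3 and 53.9 normalized CPM in controls 1 to 4. In Dnm2 +/K562E mice 1 to 4 it had 143, 125, 108 and 102. It rose by 1.22 ± 0.17 on the log2 scale (SE, adjusted p = 0.00023 with edgeR), without overlap. As for Thbs1, control 1 was the highest and control 2 the lowest control, and mouse 1 was the highest and mouse 4 the lowest mutant.

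Thbs3 (ENSMUSG00000028047, chromosome 3, 89215180 to 89226837, plus strand) was the least abundant thrombospondin, with 17.2, 17.6, 14.2 and 25.6 normalized CPM in controls 1 to 4. Dnm2 +/K562E mice 1 to 4 had 57.1, 52.6, 49.2 and 46.2, all above control 4, the highest control. This was a rise of 1.46 ± 0.15 on the log2 scale (SE, adjusted p = 3.08e-05 with edgeR). Its exons overlap those of Mtx1 on the other strand over 318 bases, or 6.59% of its exon length, and Mtx1 had 462 to 843 reads per mouse. Reads in that stretch cannot be assigned if the counting did not use strand, which is not given in the sources used here.

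Among the thrombospondins no unequal change was detected. The log2 ratio of Thbs1 to Thbs2 was 0.17 ± 0.16 (SD, n = 4) in controls and 0.47 ± 0.27 in Dnm2 +/K562E mice (exact two-sided permutation test, p = 0.114, adjusted 0.267). That of Thbs1 to Thbs3 differed by 0.06 (p = 0.771, adjusted 0.9, same permutation test) and that of Thbs2 to Thbs3 by -0.24 (p = 0.371, adjusted 0.52, same permutation test). Without control 1 the difference of Thbs2 to Thbs3 was -0.05 and without control 4 it was -0.37, and that of Thbs1 to Thbs2 was 0.20 without mutant mouse 3. With 4 mice per genotype these values do not show that the 3 genes rose equally.

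SPARC and its relatives bind collagen and calcium. Sparc (osteonectin, ENSMUSG00000018593, chromosome 11, 55394500 to 55423183, minus strand) takes part in collagen processing and assembly. It was at 1280.1, 1010.4, 1066 and 1367 normalized CPM in controls 1 to 4 and at 1940, 1936, 1764 and 1682 in Dnm2 +/K562E mice 1 to 4. The genotypes were separate, and Sparc rose by 0.63 ± 0.10 on the log2 scale (SE, adjusted p = 0.00053 with edgeR). Without control 2 the rise was 0.56 and the gene no longer passed the threshold on fold change.

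Sparcl1 (hevin, ENSMUSG00000029309, chromosome 5, 104079111 to 104113733, minus strand), a SPARC relative abundant in vessels and in the nervous system, was the most even of the 10 genes. Its levels were 616, 541, 571 and 513 normalized CPM in controls 1 to 4 and 899, 866, 866 and 848 in Dnm2 +/K562E mice 1 to 4. The coefficient of variation among mutant mice was 2.44%, and every mutant mouse lay above every control. Sparcl1 rose by 0.63 ± 0.07 on the log2 scale (SE, adjusted p = 3.12e-05 with edgeR). In the same libraries the 7 endothelial markers had a median log2 fold change of -0.40, with 1 called lower and 0 higher. Of all tested genes 7.85% were called lower and 12.9% higher. By adjusted p alone all 7 endothelial markers were lower, as were 21.7% of all tested genes.

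The log2 ratio of Sparc to Sparcl1 was 1.07 ± 0.24 (SD, n = 4) in controls and 1.07 ± 0.08 in Dnm2 +/K562E mice (exact two-sided permutation test, p = 1). The mean ratio therefore did not move, although control 4 stood at 1.41 and the other controls between 0.90 and 1.05.

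Smoc2 (ENSMUSG00000023886, chromosome 17, 14279506 to 14404790, plus strand), a SPARC relative that binds calcium and heparan sulphate and is made by fibroblasts, changed least. Controls 1 to 4 had 77.3, 103, 125 and 125 normalized CPM, and Dnm2 +/K562E mice 1 to 4 had 147, 145, 141 and 125. The mutant mice stayed within a narrow range, while the controls spread below them and met them at the top. Its difference was 0.37 ± 0.13 on the log2 scale (SE, adjusted p = 0.0423 with edgeR). Without control 1 it was 0.24, and leaving out single mice moved the adjusted p (edgeR) up to 0.103. The log2 ratio of Smoc2 to Sparc was -3.47 ± 0.41 (SD, n = 4) in controls and -3.71 ± 0.05 in mutants (exact two-sided permutation test, p = 0.314, adjusted 0.52), so no change of this ratio was detected. The difference of -0.24 became -0.44 without control 1 and -0.12 without control 3.

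**Figure D2:**
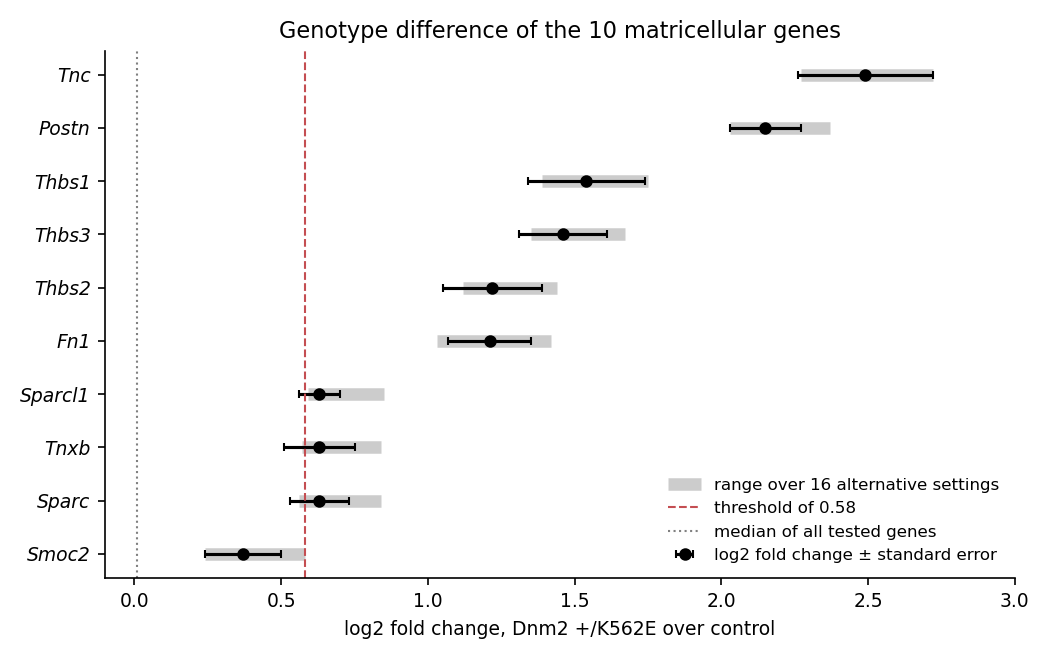
Log2 fold change of each gene, Dnm2 +/K562E over control (horizontal axis), with its standard error as black bars and the range over 16 alternative settings as grey bands. Tnc (2.49) and Postn (2.15) stand apart, Sparc, Sparcl1 and Tnxb (0.63 each) sit beside the dashed threshold of 0.58, and Smoc2 (0.37) lies below it. The dotted line is the median of all tested genes, 0.01.

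Levels of different genes were compared per length, as normalized CPM per kb of exon (RPKM). In controls the order was Sparc (312 ± 44.9 RPKM, SD, n = 4), Sparcl1 (191), Fn1 (46.4), Postn (24.2), Smoc2 (15.5), Tnxb (13.7), Thbs1 (9.48), Thbs2 (7.3), Thbs3 (3.86) and Tnc (1.99 ± 0.614). Neighbours in this order did not overlap over the mice except Smoc2 with Tnxb and Thbs1 with Thbs2. In Dnm2 +/K562E mice Sparc (483 ± 34.0 RPKM) and Sparcl1 (296) again led. Postn (108 ± 17.9) had drawn level with Fn1 (107 ± 25.3). It rose from rank 1385 to rank 290 among 13955 genes with a length, and Fn1 from 748 to 291. Below Fn1 the order became Thbs1 (27.5), Tnxb (21.2), Smoc2 (20.1), Thbs2 (17.0), Tnc (11.2) and Thbs3 (10.6), and each of these overlapped the next over the mice. The ratio of the Sparc level to that of Sparcl1 was 1.63 in both genotypes.

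**Figure D3:**
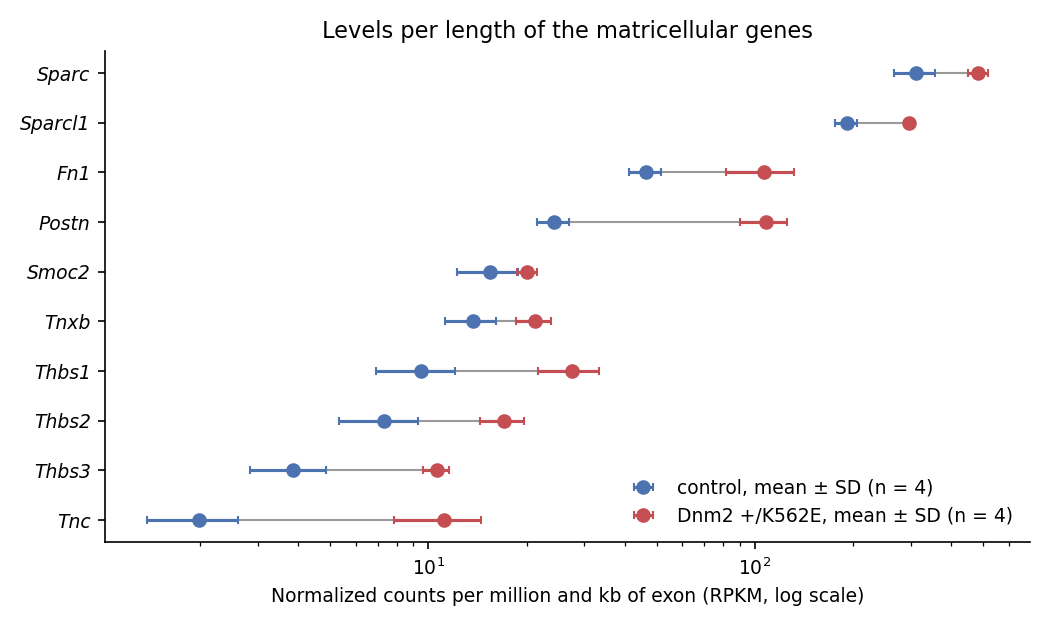
Level per length of each gene (RPKM, horizontal log axis) as mean ± SD over 4 mice, with control in blue and Dnm2 +/K562E in red. Sparc and Sparcl1 lead in both genotypes, Postn moves from 24.2 to 108 and reaches Fn1 at 107, and Tnc moves from last place at 1.99 to 11.2.

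Among the mutant mice the same animals were often at the ends of the range. Dnm2 +/K562E mouse 1 was the highest mutant for 9 of the 10 genes (Tnxb was highest in mouse 2), and mouse 4 was the lowest for 8. The controls were less regular: control 4 was the highest for 5 genes and the lowest for 1, and control 1 the highest for 4 and the lowest for 3. Of the cell type markers, the summed macrophage markers were also highest in mutant mouse 1 (296 normalized CPM) and lowest in mouse 4 (179), and in controls they were highest in control 4 (135, against 72.8 to 78.7 in the others). Platelet markers had the same highest and lowest mutant mouse (23.1 and 14) and the same highest control (13.5). The summed fibro-adipogenic markers were highest in mutant mouse 2 (962) and lowest in mouse 4 (715). The summed tendon markers were highest in mutant mouse 1 (1298) and lowest in mouse 3 (956). Other sums were lowest in mutant mouse 1, namely those of endothelial (733), smooth muscle and pericyte (1259) and all muscle fibre markers (40808). With mutant mouse 1 left out, all 9 genes remained called higher, and the median log2 fold change of the 10 genes was 1.08.

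The lists of cell type markers and of related genes were set beside the members. Their counts stand against 12.9% of all tested genes called higher and 7.85% called lower. Of 8 fibro-adipogenic markers 7 were called higher (median log2 fold change 0.98), with the smallest p-values for Lum (lumican, 1.65), Mfap5 (1.57) and Pdgfra (the PDGF receptor that defines these cells, 1.11), and Ly6a was at -0.19. Their summed level was 387 to 529 normalized CPM in controls and 715 to 962 in mutants. Of 6 tendon markers 5 were called higher (median 1.15), with the smallest p-values for the tendon transcription factor Scx (1.07), Tnmd (tenomodulin, 1.42) and Kera (1.36), with sums of 334 to 718 normalized CPM for controls and 956 to 1298 for mutants. Muscles were weighed in the study with the calcaneal tendon attached, and whether tendon was in the RNA samples is not given in the sources used here. All 7 macrophage markers were called higher (median 1.20), with log2 fold changes from 1.15 for Mrc1 to 1.77 for Cd68 and 2.1 for Lgals3, the 3 with the smallest p-values, with sums of 72.8 to 135 and 179 to 296.

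Of 4 tested platelet markers 3 were called higher (Gp1bb at 1.05, Itga2b at 0.93 and Pf4 at 0.97), and Ppbp (-0.28) was not called. For Pf4 the genotypes overlapped. The sums of the 4 markers were low, at 7.24 to 13.5 normalized CPM in controls and 14 to 23.1 in mutants. Endothelial markers had 1 of 7 called lower, Kdr (the VEGF receptor, -0.64), with sums of 1028 to 1107 and 733 to 829.8. Over all tested genes 7.85% were called lower, a share from which 1 gene of 7 cannot be told apart. By adjusted p alone all 7 were lower (edgeR, adjusted p at most 0.00994), against 21.7% of all tested genes. In all 7 every mutant mouse lay below every control, which held for 20.5% of all tested genes. Of 8 markers of smooth muscle cells and pericytes 3 were called lower, Tagln (-0.67), Myh11 (-0.63) and Acta2 (-0.82), with sums of 1766 to 1930.4 and 1259 to 1499. In the same list the pericyte markers Cspg4 (0.56) and Pdgfrb (0.16) had values above 0 and were not called. Rgs5 (-0.35), Kcnj8 (-0.43) and Notch3 (-0.50) had values below 0 (edgeR, adjusted p at most 0.0275) and were not called either. None of 6 Schwann cell markers passed both thresholds (median -0.10), with sums of 187 to 209 and 159 to 196. Among 7 slow fibre markers 3 were called lower, Myl3 (-2.12), Tnnc1 (-0.69) and Myl2 (-0.64). Among 6 genes of all muscle fibres (median -0.36) Ckm (creatine kinase, -1.02) was called lower and Des (desmin, 0.72) higher. Sums of these 6 genes were 55496 to 61955 normalized CPM in controls and 40808 to 46499.9 in mutants. No listed marker was at 0 in every mouse. The part of these cell types in the member changes was not tested.

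As a description added after the data were seen, each member's level was divided by the summed level of the 8 fibro-adipogenic markers in the same mouse. On this scale Postn was still higher, at 0.495 ± 0.107 (SD, n = 4) in controls and 1.1 ± 0.215 in Dnm2 +/K562E mice, and Tnc went from 0.035 ± 0.0053 to 0.103 ± 0.0341. Thbs3 went from 0.0424 to 0.060. For these 3 genes all mutant mice lay above all controls. Fn1, Thbs1, Thbs2 and Sparcl1 overlapped, with ratios of the means of 1.18, 1.46, 1.16 and 0.777. Tnxb (0.383 ± 0.0146 to 0.300 ± 0.0131), Sparc (2.73 ± 0.392 to 2.14 ± 0.188) and Smoc2 (0.247 ± 0.0418 to 0.163 ± 0.0112) lay below all controls in every mutant mouse. Overlap between mice and the size of the ratio did not sort the genes alike, since Thbs1 overlapped at 1.46 and Thbs3 did not at 1.41. No test was made of these ratios, and most of the 8 markers had themselves been called higher.

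**Figure D4:**
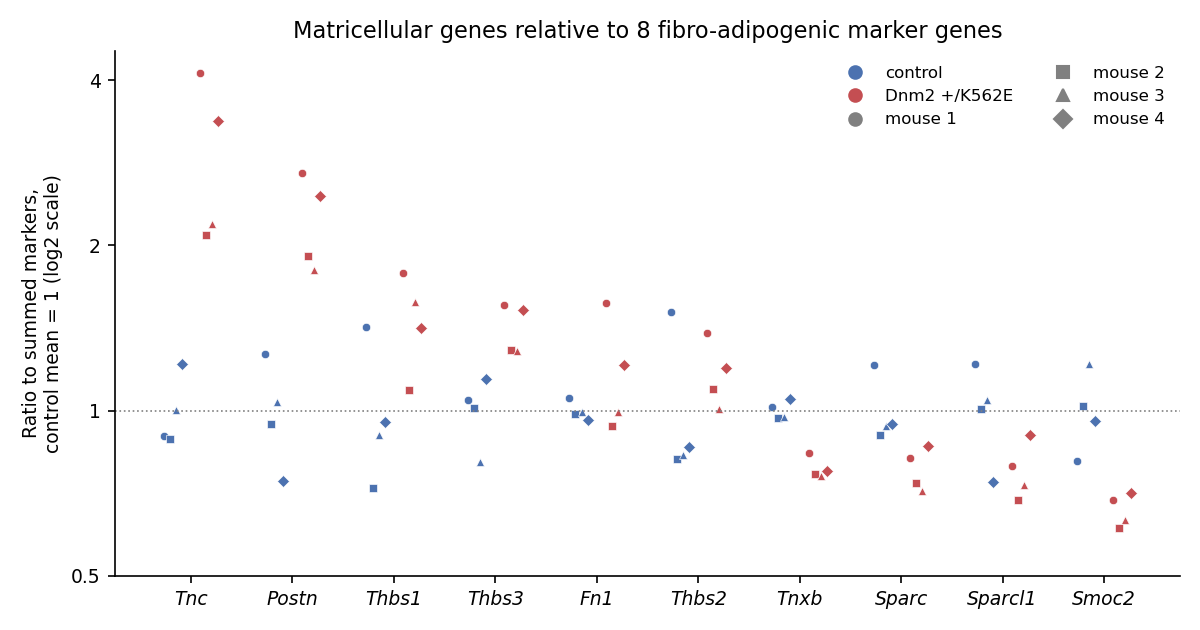
Level of each gene divided by the summed level of 8 fibro-adipogenic marker genes in the same mouse, with the control mean of each gene set to 1 (vertical log2 axis). Points are single mice, coloured by genotype. Tnc, Postn and Thbs3 lie above all controls in every mutant mouse, Tnxb, Sparc and Smoc2 lie below, and the other genes overlap.

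Of 18 tested genes of the same and neighbouring families, 12 were called higher and 2 lower, with a median log2 fold change of 0.84. The shares over all tested genes were 12.9% and 7.85%. Thbs4, the thrombospondin of tendon and muscle matrix, was at 366 ± 106 normalized CPM (SD, n = 4) with the control genotype and at 2361 ± 269.9 in Dnm2 +/K562E mice. Its rise of 2.69 ± 0.19 on the log2 scale (SE, adjusted p = 2.36e-06 with edgeR) was above the values of Thbs1, Thbs2 and Thbs3, a difference that was not tested. Fbln7, a fibulin, rose by 2.64 on the log2 scale and the SPARC relative Fstl1 by 1.06. Vtn (vitronectin) fell by 1.01 and Spp1 (osteopontin) fell by 0.69 on the log2 scale.

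Of 30 genes for receptors of these proteins, 10 were called higher and 0 lower, with a median log2 fold change of 0.53. For this list and those below, the shares over all tested genes were 12.9% higher and 7.85% lower. Those with the smallest p-values were Itga8 (1.5), the integrin alpha chain that binds fibronectin, tenascin-C and osteopontin, Sdc2 (1.37), a syndecan, and Itga10 (1.38), a collagen-binding integrin chain, while Cd44, a hyaluronan receptor, had the largest rise (1.55). Cd36, a receptor of thrombospondin-1 that muscle fibres and endothelial cells also use to take up fatty acids, had a log2 fold change of -0.44 and was not called. Of 23 partners and processing enzymes 18 were called higher and 1 lower (median 1.00). Col5a2 (1.41, a chain of a fibril-forming collagen), Col12a1 (1.68, a fibril-associated collagen) and the matrix metalloproteinase Mmp2 (1.44) had the smallest p-values among those called higher, and Mmp9 was called lower at a low level (1.75 ± 1.01 to 0.55 ± 0.173 normalized CPM, SD, n = 4). Of 16 genes for TGF-beta ligands, their receptors and Smads, 6 were called higher and 0 lower (median 0.38). The smallest p-values were those of the latent TGF-beta binding protein Ltbp3 (1.03) and the ligands Tgfb2 (1.28) and Tgfb3 (0.62). Ltbp2 (1.69), of the same family as Ltbp3, rose most, whereas Tgfb1 had a log2 fold change of 0.50 and was not called. The lowest values of this list were those of Smad3 (-0.52), Eng (-0.50) and Acvrl1 (-0.46), which were not called either.

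**Figure D5:**
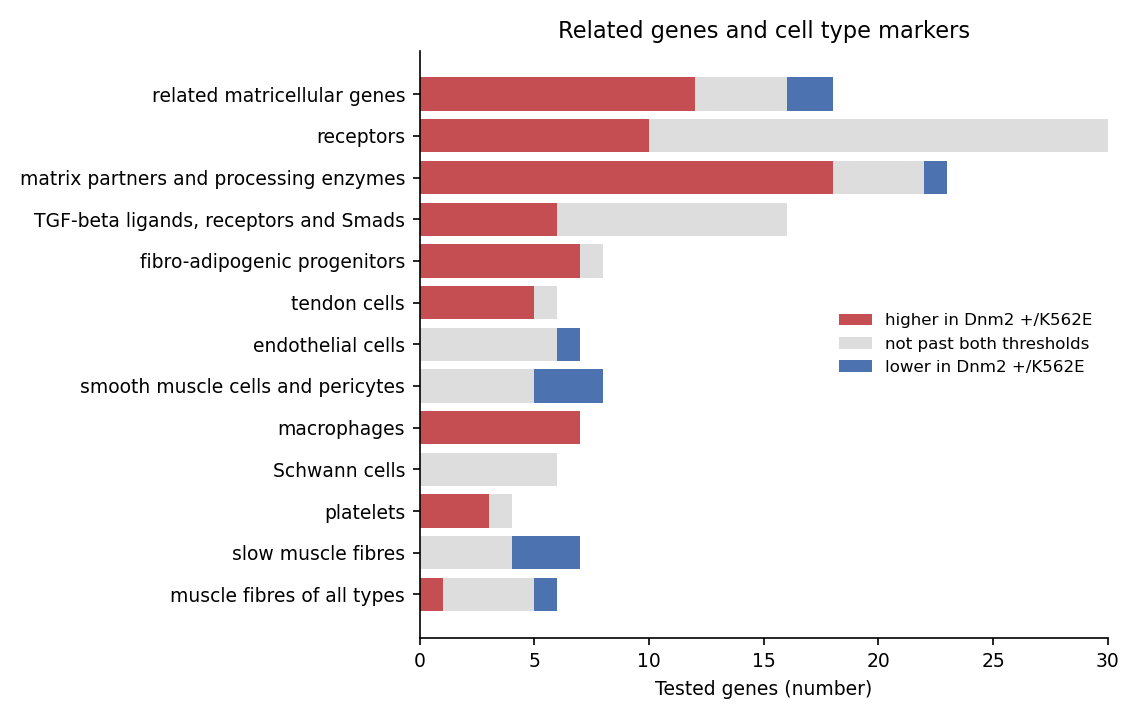
Number of tested genes (horizontal axis) in each list of related genes and cell type markers that were higher, lower or not past both thresholds in Dnm2 +/K562E soleus. Matrix partners (18 of 23), related matricellular genes (12 of 18), fibro-adipogenic, tendon and macrophage markers are mostly higher, while endothelial, vessel wall and slow fibre markers are lower or not called. Over all tested genes 12.9% were higher and 7.85% lower.

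For 9 of the 10 members, the gene with the most similar course over the 8 mice is given, taken as the gene outside the 10 with the smallest root mean square difference of centred log2 CPM. For Postn this was the adenylate kinase gene Ak4, at a difference of 0.10 on the log2 scale and a log2 fold change of 2.22. For Fn1 it was Mrc2, an endocytic collagen receptor (difference 0.09). Tnc was nearest to Fbln7 (0.20) and Thbs2 to 1700019D03Rik (0.12). The other nearest genes were Slc41a2 for Thbs3 (0.08), Agap1 for Smoc2 (0.08), the lysosomal enzyme gene Naglu for Sparc (0.06), Capn5 for Tnxb (0.05) and Mlip, a muscle lamin-interacting protein gene, for Sparcl1 (0.05). These are the nearest of all tested genes by construction and are given without a test.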

How the data were processed

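RNA of 8 soleus muscles (4 control, 4 Dnm2 +/K562E) was sequenced as paired ends. The authors deposited raw read counts per Ensembl gene for each mouse, without normalization. Per the labels and the study's methods, reads were trimmed with Trimmomatic (0.33), aligned with STAR (2.5.1b) to GRCm38.p5 and counted with featureCounts at a minimum mapping quality of 10. Multi-mapping reads were counted at the primary alignment, and reads overlapping several genes for each of them, so overlapping genes share counts. Library kits differ between the study's methods (poly A enrichment) and the labels (stranded total RNA). The strand setting of the counting is not given in the sources used here. Samples were grouped by genotype, the only group label, and no batch is named in the labels. The description of 1 mutant mouse writes the residue number of the mutation differently from its title and genotype label, which were followed.

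Symbols, positions and exon lengths came from GENCODE M21 (GRCm38), which matched 22647 of 22880 identifiers. With edgeR (4.0.16, R 4.3.3), 14001 genes passed filterByExpr (at least 10 reads, total at least 15). The quasi-likelihood F-test with TMM factors and Benjamini-Hochberg adjustment followed, with the thresholds of the study (adjusted p 0.05, log2 fold change 0.58). Standard errors were derived from the F statistics. RPKM are normalized CPM per kb of merged exons, and a prior count of 2 was added for log2 CPM. Ratios of genes were compared by exact two-sided permutation tests over mice (scipy 1.17.1). Transcripts of the members were searched for stretches of 31 bases that other genes also hold. The fitting was run on simulated counts in which a small set of genes changed equally often in both directions. This does not check the scaling under the many changes found here. The members and lists were chosen with earlier results of these data known. The genes named are the members, Dnm2, in each list up to 3 called genes per direction by p-value, and the nearest gene of each member, of which 1 is not reported here. Ly6a, Cd36, Cd44, Cspg4, Pdgfrb, Rgs5, Kcnj8, Notch3, Ppbp, Ltbp2, Tgfb1, Smad3, Eng and Acvrl1 were named after their values were seen. The fit was repeated with DESeq2 (1.42.0), with edgeR's exact test, with library size or median-ratio factors in place of TMM, with other filters, with a replicate block, with no fold change threshold and without each mouse. At the depth of at least 33407430 counts, the members had between 408 and 83315 reads per mouse. The p-values test a genotype difference against the variation between animals. The spread within a genotype is given by the SD.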

Additional observations from a re-analysis of the deposited data

Results flagged for a closer look

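In 4 of 36 groups of 4 values (the members, Dnm2 and the 7 ratios in each genotype), 1 mouse lay far from the other 3 by Dixon's criterion, which chance gives in about 1 of 20 groups. Fn1 was high in control 4 (634 normalized CPM, against 504 to 519 in the other controls) and in Dnm2 +/K562E mouse 1 (1697, against 1081 to 1121). Tnxb was high in control 4 (213 normalized CPM, against 150 to 155). Dnm2 was low in control 3 (59.2 normalized CPM, against 68.5 to 68.8). Control 4 also had the highest sums of macrophage (135), tendon (718) and fibro-adipogenic markers (529 normalized CPM) among the controls, and their part in these values was not tested.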

How the results depend on the processing

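Over 16 alternative settings per gene, all 10 members stayed higher in mean in Dnm2 +/K562E soleus. Postn, Fn1, Tnc, Sparcl1 and the 3 thrombospondins kept their call in all of them, with log2 fold changes from 2.03 to 2.37 for Postn, 2.27 to 2.72 for Tnc and 1.03 to 1.42 for Fn1. Tnxb (0.57 without control 1) and Sparc (0.56 without control 2) fell just below the threshold on fold change, by the construction of a fixed limit near their values. With library size as the only scaling, the median over all genes became 0.22, Smoc2 reached 0.58 and was called, and the genes called over all were 2865 higher and 564 lower, against 1806 and 1099. Without the fold change threshold 3103 were higher and 3036 lower, and all 10 members were among the higher. Leaving out each mouse gave 8 to 9 members higher and 0 lower, 1588 to 1970 genes higher and 1026 to 1208 lower. Differences of log2 ratios then ran from 1.71 to 1.99 for Tnc to Tnxb and from 0.84 to 1.05 for Postn to Fn1, and those of Sparc to Sparcl1 (-0.05 to 0.12) and Thbs1 to Thbs3 (-0.09 to 0.22) crossed 0. Those of Thbs1 to Thbs2 ran from 0.20 to 0.41, of Thbs2 to Thbs3 from -0.37 to -0.05 and of Smoc2 to Sparc from -0.44 to -0.12.

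The mice carry numbers from 1 to 4 in both genotypes and are separate animals. Gene levels relative to the group mean correlated at -0.11 on average between mice of equal number by the titles and at -0.03 by the descriptions. By the titles no control correlated best with the mutant mouse of its own number, and by the descriptions only control 1 did. With the replicate block by the titles, 1637 genes were higher and 1036 lower, and 9 members stayed higher, with Smoc2 at an adjusted p of 0.0651 (edgeR). With the descriptions' numbers 1739 were higher and 1083 lower, again with 9 members. The block left the ratio differences at 1.86 for Tnc to Tnxb and 0.95 for Postn to Fn1, and 4 pairs cannot give a p below 0.125. Depth did not limit the members, whose lowest count was 408.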
